A study of Mus musculus with 8 samples.

Results

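GATA3, TCF-1 (gene Tcf7), LEF-1, BCL11B, RUNX1, RUNX3, ThPOK (gene Zbtb7b), T-bet (gene Tbx21), EOMES and TOX are transcription factors that set up the T cell lineage and its later fates. Their genes were taken as a list of 10 and located as the probe sets whose only gene symbol in the platform annotation was one of these names. Of the 10 genes, 9 had at least 1 such probe set, giving 16 probe sets of 20380 with a single symbol (9 of 12393 genes). Tcf7 had no such probe set, so its expression is not analysed here. The genes were chosen by their function and selected on the measured difference in log2 intensity between the sorted groups, which was already known, so that difference is given below as a description of these factors and is not tested for them.

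RNA had been hybridised to 8 Affymetrix Mouse 430A 2.0 arrays, 4 from CD44hi and 4 from CD44lo cells, replicates 1 to 4 of each. All cells came from stable Snf5-deficient lines of mouse T cell lymphoma; Snf5, also called Smarcb1, belongs to the SWI/SNF complex, which moves nucleosomes. Thus the deficiency is shared by both groups and no Snf5-proficient cells serve as a control. The subpopulations had been purified by surface CD44, an adhesion receptor that is high on activated and memory T cells. The number of lines, the strain, the age of the animals and the way Snf5 was lost are not stated by the labels, nor is it said whether replicates were separate cultures, so the spread between arrays may be technical.

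In the thymus, Notch signals induce TCF-1 and GATA3, and BCL11B then closes off other lineages, which commits the cell to the T lineage. Later, ThPOK and GATA3 favour the CD4 helper fate and RUNX3 the CD8 cytotoxic fate, by repressing each other's programme. In mature cells GATA3 drives T helper 2 cytokines, T-bet drives interferon-gamma and its relative EOMES cytotoxic and memory functions, LEF-1 and TCF-1 maintain naive cells, and TOX acts in CD4 lineage development and in T cell exhaustion.

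Among the measured factors, Gata3 was the 1 gene with a large difference between the groups: it was 11.9-fold lower in CD44hi than in CD44lo cells. The other 15 probe sets, from 8 genes, differed by -0.19 to 0.36 on the log2 scale. Tbx21 was slightly higher on every CD44hi array, and the other factors of commitment and of the CD4 and CD8 fates differed by little. Lef1 and Eomes lay at the level of bacterial control probe sets in both groups.

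The promoters of 3 of these genes are shown because they carry the description that follows: Gata3 as the gene with the large difference, Tbx21 as a gene higher on every CD44hi array at a level clear of background, and Runx3 as the gene whose promoter holds a pair of RUNX motifs. Each is the 250 bases before an annotated transcription start, 5′ to 3′ on the gene's strand, from RefSeq on GRCm38.p6. Letters are in lower case, with matches to the searched motifs in capitals. The Gata3 start is not the outermost annotated start of its gene, whereas those printed for Tbx21 and Runx3 are.
Gata3, chr2:9878601-9878850, minus strand: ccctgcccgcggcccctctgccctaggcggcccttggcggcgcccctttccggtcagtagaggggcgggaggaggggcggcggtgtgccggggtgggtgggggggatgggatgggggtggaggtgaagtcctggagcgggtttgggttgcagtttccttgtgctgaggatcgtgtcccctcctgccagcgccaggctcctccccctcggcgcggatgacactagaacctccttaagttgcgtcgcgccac
Tbx21, chr11:97115332-97115581, minus strand: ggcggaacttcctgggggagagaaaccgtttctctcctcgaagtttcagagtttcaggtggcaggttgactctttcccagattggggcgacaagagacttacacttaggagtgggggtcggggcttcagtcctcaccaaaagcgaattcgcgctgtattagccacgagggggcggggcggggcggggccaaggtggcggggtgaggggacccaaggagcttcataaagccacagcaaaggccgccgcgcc
Runx3, the first of 2 annotated starts, chr4:135120395-135120644, plus strand: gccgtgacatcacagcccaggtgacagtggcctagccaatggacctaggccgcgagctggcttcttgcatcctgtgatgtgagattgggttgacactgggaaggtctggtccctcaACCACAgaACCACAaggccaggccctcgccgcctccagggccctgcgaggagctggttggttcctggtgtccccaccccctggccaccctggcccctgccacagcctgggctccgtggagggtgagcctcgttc

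The motifs searched were AGATAA for GATA factors, TGTGGT for RUNX factors, CTTTGA for TCF-1 and LEF-1 and AGGTGT for T-box factors, each on both strands. Promoters were found for 9 of the 10 genes, with Tcf7 included and Tox being the gene without an entry, and made up 16 windows. A GATA motif was in 0 of the 16 windows, against 9.99% of 32851 promoter windows of the same length. A RUNX motif was in 2 of them, against 14.0% of all. The Runx3 window holds it at 134 and 126 bases before the start, as ACCACA on the printed strand, and the second start of Zbtb7b at 89 bases before. The TCF/LEF motif was in 2 windows, against 13.8% of all, namely those of Bcl11b and of a downstream start of Lef1. The T-box motif was in 1 window, of another downstream start of Lef1, against 11.8% of all. The Gata3 and Tbx21 windows hold none of these letters, which says nothing about binding by the factors.

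Gata3 codes for a zinc finger factor needed for T cell commitment, for CD4 lineage choice and for T helper 2 cells. Its log2 intensity on the probe set 1448886_at was 6.13, 6.26, 6.26 and 6.19 in CD44hi replicates 1 to 4 and 9.76, 9.71, 9.43 and 10.21 in CD44lo replicates 1 to 4. All CD44hi arrays were low and close together, all CD44lo arrays were high with more spread, and the groups were far apart. The CD44hi mean was 6.21 ± 0.06 and the CD44lo mean 9.78 ± 0.32 (SD, n = 4 each). The difference of CD44hi minus CD44lo was -3.57 (SE 0.15), the lowest of 22626 probe sets. At replicate numbers 1 to 4 it was -3.62, -3.45, -3.17 and -4.02, so every number showed it. On each array the CD44hi level lay above the highest of 27 bacterial control probe sets, which reached 5.86 at most. Adding 32 to each intensity before taking log2 moved the difference to -3.10. In bulk RNA, fewer cells with the transcript and less transcript per cell cannot be told apart.

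**Figure D1:**
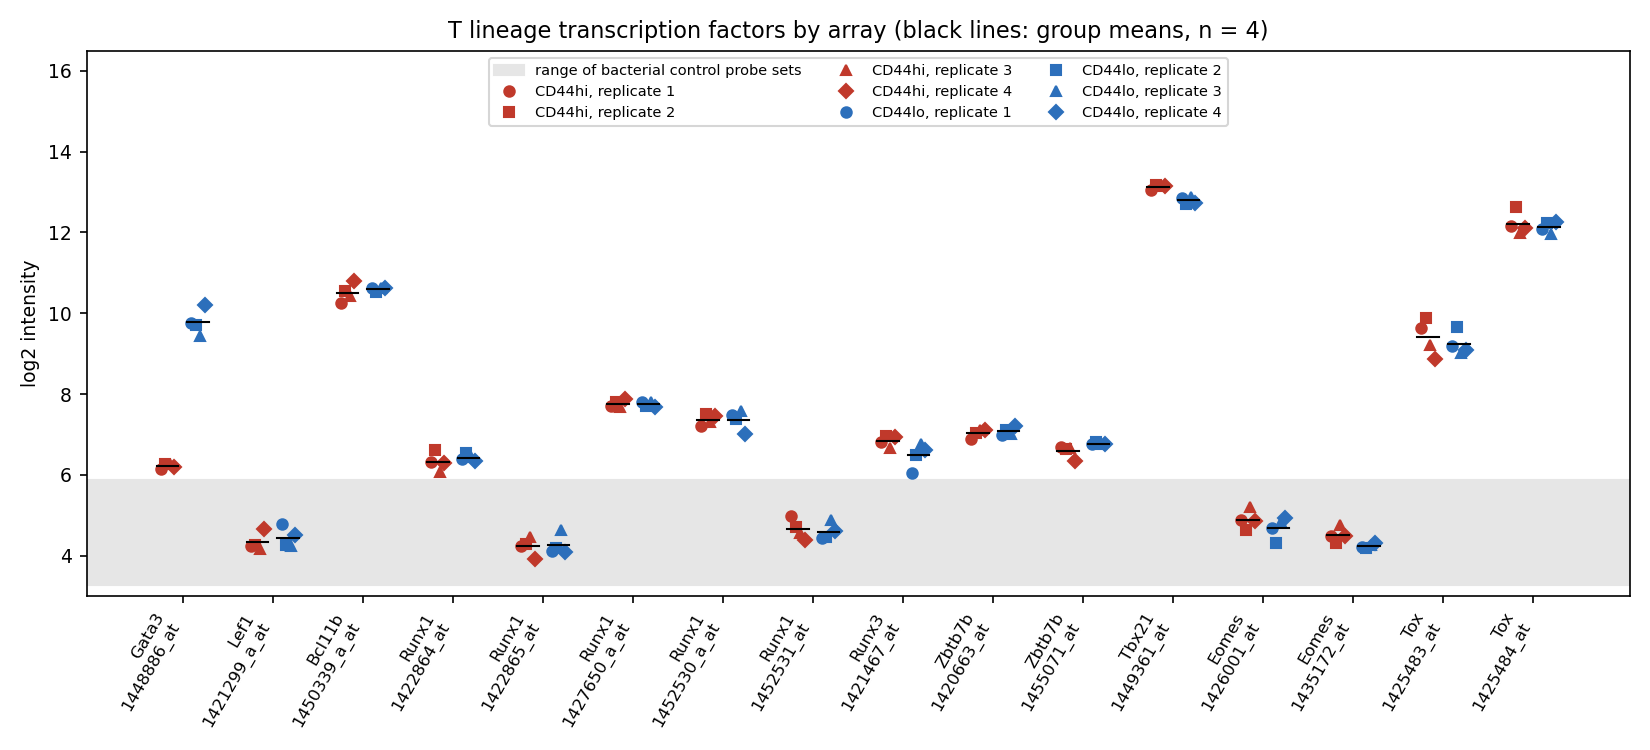
Log2 intensity of the 16 probe sets on each array, with CD44hi in red and CD44lo in blue, a marker shape for each replicate and a black line at each group mean (n = 4). The grey band spans the bacterial control probe sets, from 3.27 to 5.86; Gata3 is at 6.13 to 6.26 in CD44hi and 9.43 to 10.21 in CD44lo, while the other probe sets lie at similar levels in both groups.

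Tbx21 codes for T-bet, the T-box factor of type 1 helper and cytotoxic effector cells. It was at 13.06, 13.17, 13.14 and 13.15 in CD44hi and at 12.86, 12.71, 12.89 and 12.74 in CD44lo on the log2 scale. Every CD44hi array lay above every CD44lo array, with means of 13.13 ± 0.05 and 12.80 ± 0.09 (SD, n = 4 each). The difference was 0.33 (SE 0.08), or 1.26-fold. It was 0.19, 0.47, 0.25 and 0.40 at replicate numbers 1 to 4, larger at numbers 2 and 4 than at 1 and 3.

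Eomes, the second T-box factor, was measured by 2 probe sets, and on both every array lay at or below the highest bacterial control of that array. Probe set 1435172_at was at 4.48, 4.31, 4.76 and 4.50 in CD44hi and at 4.22, 4.19, 4.25 and 4.31 in CD44lo. The groups on it just failed to overlap, CD44hi being higher by 0.27 (SE 0.10). On probe set 1426001_at the groups overlapped, with a difference of 0.20 (SE 0.16). At levels among the controls neither size is certain.

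Lef1, the HMG box factor that acts with TCF-1, was likewise at or below the highest control on every array. Its log2 intensity was 4.23, 4.26, 4.16 and 4.67 in CD44hi and 4.79, 4.27, 4.24 and 4.50 in CD44lo. The groups overlapped, and the difference was -0.12 (SE 0.15).

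Bcl11b, the zinc finger factor that completes commitment, was at 10.25, 10.54, 10.42 and 10.80 in CD44hi and at 10.64, 10.52, 10.61 and 10.61 in CD44lo. The groups overlapped, with a difference of -0.09 (SE 0.12). The SD was 0.05 among CD44lo arrays and 0.23 among CD44hi arrays (n = 4 each). At numbers 1 and 3 Bcl11b was lower in CD44hi, by -0.38 and -0.19, and at numbers 2 and 4 it was not (0.02 and 0.19).

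Runx1, the RUNX factor of progenitors and early thymocytes, had 5 probe sets, and their differences ran from -0.10 to 0.06. On 2 of them, 1422865_at and 1452531_at, every array lay at or below the highest control. Probe set 1427650_a_at was at 7.70, 7.79, 7.67 and 7.87 in CD44hi and at 7.79, 7.70, 7.81 and 7.69 in CD44lo, a difference of 0.01 (SE 0.08). On 1452530_a_at the difference was -0.28, 0.12, -0.27 and 0.44 at numbers 1 to 4, with a mean of 0.0035 (SE 0.13). Like Bcl11b, both of these Runx1 probe sets were lower in CD44hi at numbers 1 and 3 and higher at numbers 2 and 4. That pattern was seen in 3 of the 16 probe sets and in 6.47% of all 22626. A change of sign between those pairs in either direction was seen in the same 3 and in 14.8% of all. The pairs of numbers were chosen after seeing the data, so nothing is read from these counts.

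Runx3, the RUNX factor of CD8 cells, was at 6.81, 6.96, 6.66 and 6.94 in CD44hi and at 6.04, 6.50, 6.77 and 6.60 in CD44lo. The groups overlapped, since CD44lo replicate 3 exceeded CD44hi replicate 3, and CD44lo replicate 1 was the lowest array. The difference was 0.36 (SE 0.15), and was 0.76, 0.46, -0.11 and 0.34 at numbers 1 to 4. Without CD44lo replicate 1 it was 0.22.

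Zbtb7b codes for ThPOK, the factor that opposes RUNX3 in CD4 cells, and had 2 probe sets. On 1455071_at it was at 6.70, 6.65, 6.66 and 6.35 in CD44hi and at 6.75, 6.82, 6.77 and 6.76 in CD44lo. Every CD44hi array was below every CD44lo array, with a difference of -0.19 (SE 0.09), and CD44hi replicate 4 lay apart from the other three. On 1420663_at the groups overlapped at 6.89 to 7.12 and 6.98 to 7.20, with a difference of -0.03 (SE 0.09). The probe sets of this gene thus disagree on whether the groups overlap.

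Tox, an HMG box factor of CD4 lineage development and of exhausted T cells, had 2 probe sets. On 1425484_at it was at 12.15, 12.64, 11.99 and 12.11 in CD44hi and at 12.08, 12.23, 11.95 and 12.26 in CD44lo, a difference of 0.09 (SE 0.15). On 1425483_at it was at 9.64, 9.89, 9.21 and 8.88 in CD44hi and at 9.18, 9.67, 9.01 and 9.10 in CD44lo, a difference of 0.16 (SE 0.23). The groups overlapped on both probe sets, and CD44hi replicate 2 was the highest array on each.

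**Figure D2:**
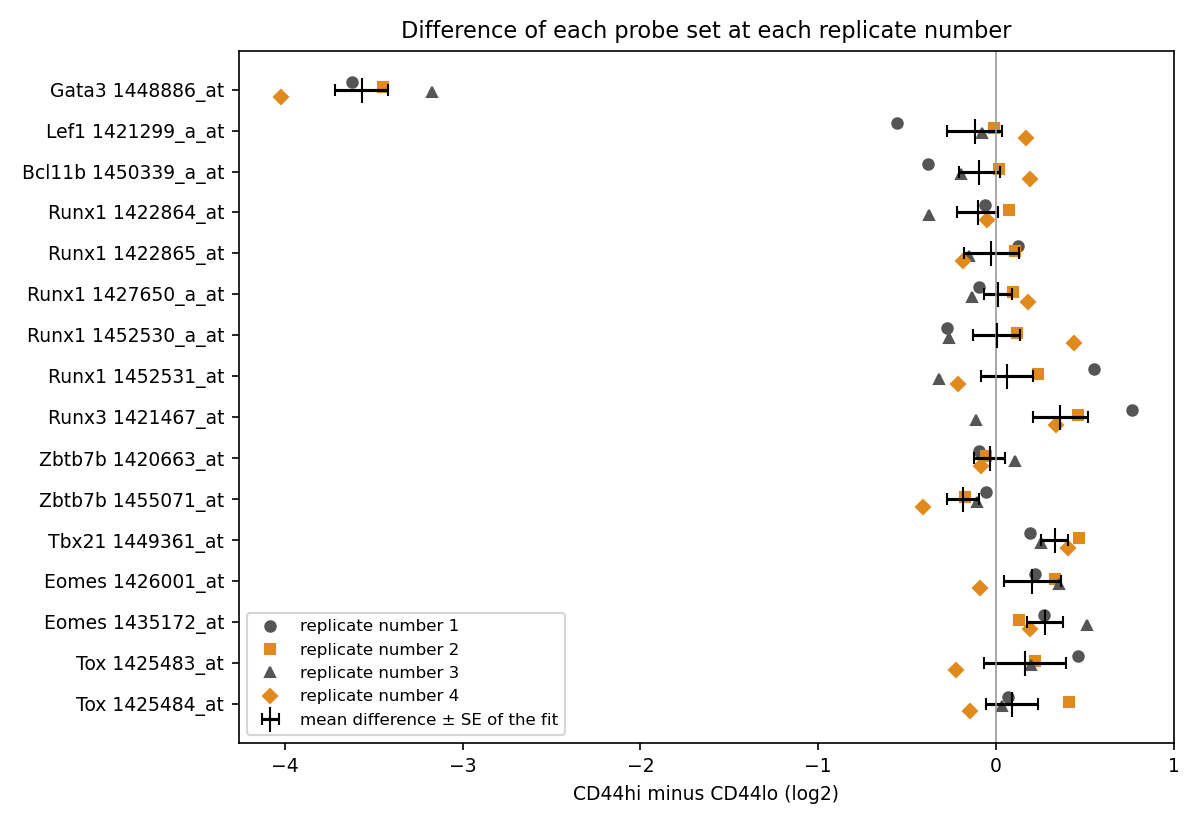
Difference of CD44hi minus CD44lo in log2 intensity for each of the 16 probe sets at replicate numbers 1 to 4 (markers) and its mean with the standard error of the fit (black). Gata3 lies between -4.02 and -3.17 at the 4 numbers, whereas the means of the other probe sets lie between -0.19 and 0.36.

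The groups were compared by limma over all 22626 probe sets, with Benjamini-Hochberg adjustment and a threshold of 0.05. It called 371 probe sets higher and 334 lower in CD44hi, 3.12% of all. Of the 16 probe sets of these factors 0 were called higher, against 1.64% of all, and 1 was called lower, that of Gata3, against 1.48%. At an unadjusted p under 0.05, for which no share of all is given here, 3 were higher. Tbx21 was not among the calls of this fit, but was in 6 of 19 other settings, which reuse the same arrays. With the replicate block 0 were called higher and 1 lower, against 5.15% of all probe sets in either direction. Every CD44hi array lay above every CD44lo array for 2 of the 16 (4.73% of all) and below for 2 (4.61% of all), so that 4 did not overlap (9.34% of all). These counts, that of settings included, concern the comparison the list was drawn up from, so nothing is read from them. The median difference over the 16 probe sets was 0.01 and over all probe sets -0.0011.

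The genes whose pattern over the 8 arrays was most like that of Gata3 were found as those with the smallest root mean square distance between log2 values, each centred on its mean. Of 12384 genes compared the nearest was Slamf6, a receptor of the SLAM family on lymphocytes, at a distance of 0.27. Its CD44hi arrays read 8.52, 8.54, 8.57 and 9.04, its CD44lo arrays 11.80, 12.08, 11.87 and 12.08. Next were Sln, which codes for sarcolipin, a regulator of the muscle calcium pump, at 0.33, and the kallikrein protease gene Klk4, at 0.36. Sln had a mean of 4.94 in CD44hi and 8.27 in CD44lo. Klk4 lay between 4.96 and 5.49 on the CD44hi arrays and between 8.28 and 8.70 on the CD44lo arrays. The CD44hi levels of Sln and Klk4 lay among the bacterial controls, that of Gata3 did not, and close kallikrein paralogs can share probes. Only Gata3 among the factors varied enough over the arrays (SD of at least 0.5) for this comparison.

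**Figure D3:**
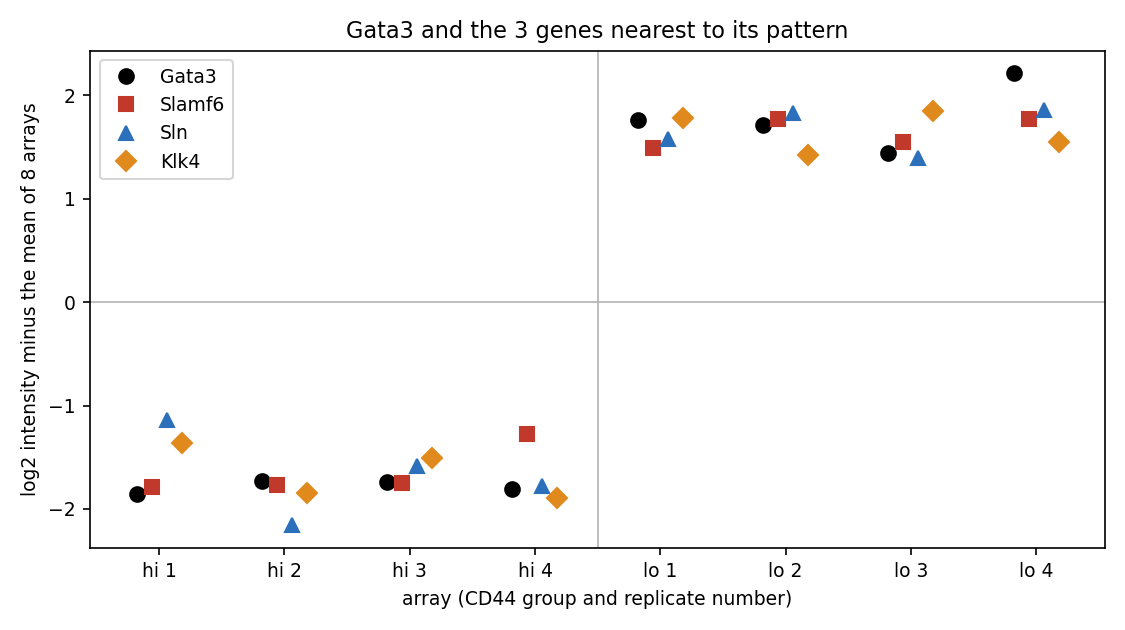
Log2 intensity minus its mean over the 8 arrays for Gata3, Slamf6, Sln and Klk4, with CD44hi arrays on the left and CD44lo arrays on the right. All 4 genes are below their mean on every CD44hi array and above it on every CD44lo array. Slamf6, Sln and Klk4 were picked for nearness to Gata3, so this split follows from how they were chosen.

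Genes that act with or downstream of these factors were then examined in 7 lists, of whose 164 genes 150 were measured, each by its brightest probe set. In all 8 genes rose in CD44hi and 2 fell, against 1.64% and 1.48% of all probe sets. The lists were chosen with earlier results known and count 1 probe set per gene, so no excess is read. Some genes lay at or below the highest bacterial control on every array, where no difference is certain. They were 12 of the T-bet, Eomes and cytotoxic genes, 6 T helper 2 genes and 8 commitment regulators. They were also 6 paralogs and partners, 1 naive T cell gene, 10 receptor genes and 3 TOX and exhaustion genes.

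The list of GATA3 and T helper 2 genes had 15 measured members, of which 1 rose and 0 fell, with a median log2 difference of 0.10 against -0.0011 over all probe sets. The riser was Il4ra, a receptor subunit for the cytokines IL-4 and IL-13, with a CD44hi mean of 9.91 ± 0.15 and a CD44lo mean of 9.14 ± 0.22 (SD, n = 4 each; difference 0.77, SE 0.12, limma adjusted p = 0.0107). Its other probe sets differed by 0.23 to 0.71. The T helper 2 cytokine Il13 was at 12.37, 12.55, 12.27 and 12.33 in CD44hi and at 12.12, 12.41, 12.20 and 12.20 in CD44lo, with overlapping groups and a difference of 0.15 (SE 0.10). Il4 was at 7.69, 7.94, 8.13 and 8.19 in CD44hi and at 7.66, 9.04, 7.53 and 8.76 in CD44lo (difference -0.26, SE 0.33). Il5 was at 5.28 to 5.39 and 5.18 to 5.45, among the bacterial controls. Neither Il4 nor Il5 passed the test, nor did Il13 (limma adjusted p = 0.662), and these 3 were singled out after their values were seen. At an unadjusted p under 0.05, for which no share of all probe sets is given here, 4 genes were higher and 0 lower. Besides Il4ra they were Bhlhe41 (difference 0.83, limma adjusted p = 0.0729), Il10 (0.77, 0.15) and Ptgdr2 (0.26, 0.307), none of them called. Il10 and Ptgdr2 lay at or below the highest control on every array.

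The list of T-bet, Eomes and cytotoxic genes had 29 measured members, of which 2 rose and 0 fell, with a median of 0.03. Ccl5, a chemokine of effector T cells, was at 12.86, 12.33, 12.85 and 12.25 in CD44hi and at 10.59, 10.37, 10.44 and 10.35 in CD44lo (difference 2.14, SE 0.16, limma adjusted p = 9.41e-05). Cxcr3, a chemokine receptor that T-bet induces, was at 11.57, 11.83, 11.60 and 11.99 in CD44hi and at 11.02, 10.88, 11.05 and 10.99 in CD44lo (difference 0.76, SE 0.11, limma adjusted p = 0.00462). The groups did not overlap for either gene. At an unadjusted p under 0.05, for which no share of all probe sets is given here, 4 genes were higher and 1 was lower. With the replicate number as a block in the fit, which called 2.52% of all probe sets higher and 2.63% lower, 3 genes of this list were higher and 1 was lower. Ifng, the interferon-gamma gene and classical T-bet target, then passed with a difference of 0.59 (limma adjusted p = 0.124 without and 0.0231 with the block), and Il18r1 passed as lower by -0.76 (0.274 and 0.0290). Ifng was at 12.35, 12.92, 12.33 and 12.95 in CD44hi and at 11.94, 12.21, 11.93 and 12.12 in CD44lo.

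The list of TCF-1, LEF-1 and naive T cell genes had 18 measured members, of which 4 rose and 1 fell, with a median of 0.13. Il7r, the receptor for the survival cytokine IL-7, rose by 2.53 (SE 0.21), Ccr7, a lymph node homing receptor, by 1.88 (SE 0.17) and Nsg2 by 1.82 (SE 0.14). Slamf6, a surface marker of T cells with high TCF-1, fell by 3.29 (SE 0.13). The limma adjusted p was 0.000191 for Il7r, 0.000401 for Ccr7, 0.000162 for Nsg2 and 4.44e-06 for Slamf6. Actn1, named although outside the rule because it completes the count, rose by 0.66 (SE 0.13, limma adjusted p = 0.0275), and its other probe sets differed by 0.01 to 0.17. That call was lost without CD44hi replicate 1, 2 or 3 or CD44lo replicate 1, 2 or 4 (limma adjusted p = 0.0551 to 0.0947).

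The paralogs and partner proteins had 24 measured genes, of which 0 rose and 1 fell, with a median of -0.01. Tcf7l2, a relative of TCF-1 and LEF-1 in Wnt signalling, was at 6.18, 5.74, 5.93 and 5.31 in CD44hi and at 6.83, 6.86, 6.98 and 6.70 in CD44lo (difference -1.05, SE 0.17, limma adjusted p = 0.0102). Its other probe sets differed by -0.35 to -0.21. With the replicate block Gata4, a GATA factor of heart and gut, passed as lower too (difference -0.57, other probe set -0.0045, limma adjusted p = 0.0982 without and 0.0138 with the block). Cbfb, the subunit shared by RUNX1 and RUNX3, was at 13.35 to 13.63 in CD44hi and 13.39 to 13.45 in CD44lo, and was singled out after its values were seen.

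The T lineage commitment regulators had 26 measured genes, of which 1 rose and 0 fell, with a median of 0.04. Id2, an inhibitor of E proteins in effector T cells, was at 13.19, 13.30, 12.91 and 13.10 in CD44hi and at 12.72, 12.66, 12.51 and 12.46 in CD44lo (difference 0.54, SE 0.11, limma adjusted p = 0.0269). Its other probe sets differed by 0.0005 to 0.29. The call was lost without CD44hi replicate 1, 2 or 4 or CD44lo replicate 2, 3 or 4 (limma adjusted p = 0.0540 to 0.0952). Of 23 T cell receptor and coreceptor genes (median 0.01) and 15 TOX and exhaustion genes (median -0.06), 0 were called either way by limma. That held with and without the replicate block, against 5.15% and 3.12% of all probe sets. At an unadjusted p under 0.05 there were 2 in each list, namely Cd28 and Zap70, and Cd244a and Entpd1. No share of all probe sets is given for that level, so nothing is read from these counts.

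**Figure D4:**
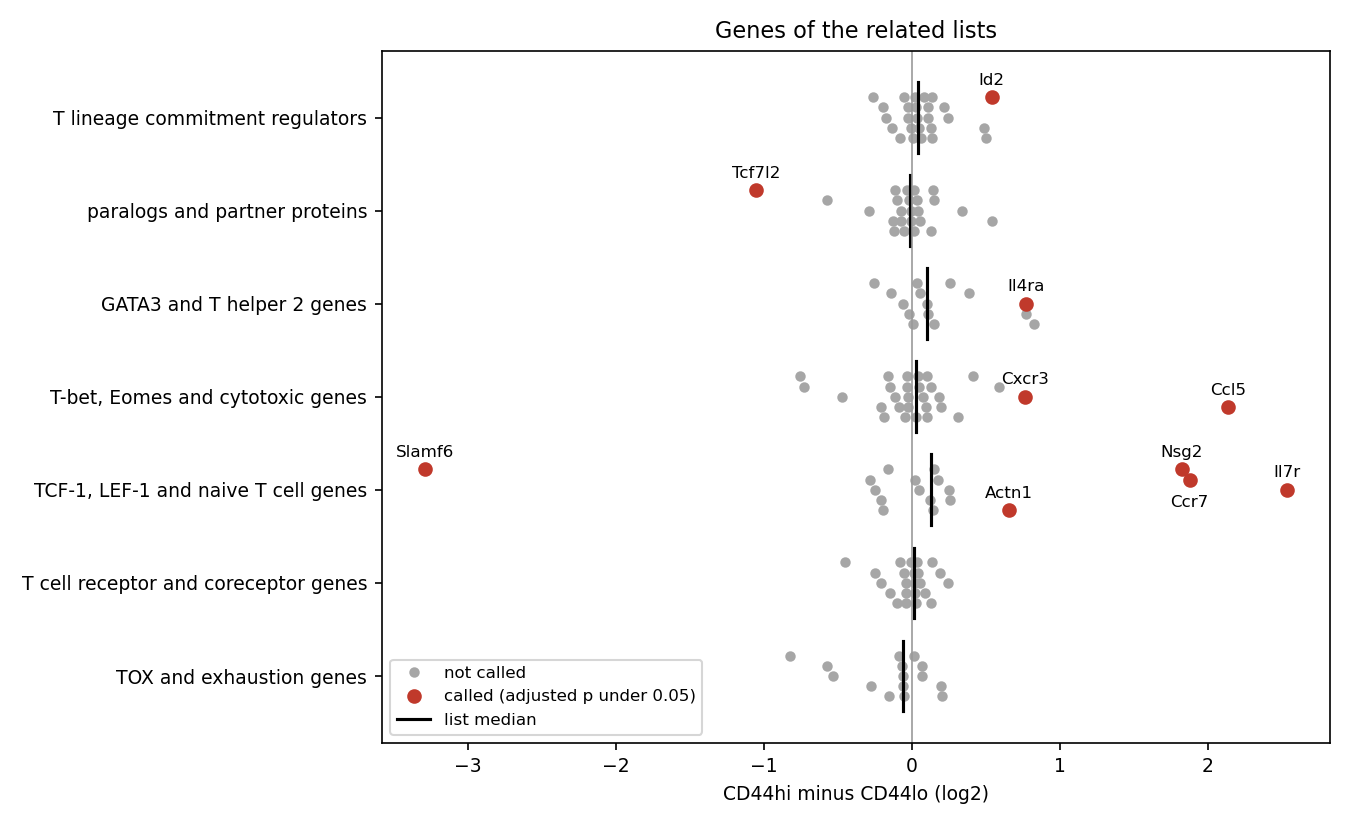
Difference of CD44hi minus CD44lo in log2 intensity for each measured gene of the 7 related lists, with the list median as a black line and called genes in red. Il7r lies highest at 2.53 and Slamf6 lowest at -3.29, and most genes lie close to 0.

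As a check of the labels, Cd44 averaged 11.44 ± 0.28 on the CD44hi arrays and 5.55 ± 0.45 on the CD44lo arrays (SD, n = 4 each). Smarcb1, the gene of Snf5, averaged 6.78 ± 0.10 and 6.85 ± 0.21 (SD, n = 4 each); whether its probes lie in the lost part is not known here, so it checks nothing. Of the T cell markers, Cd3d, Cd3e, Cd3g, Cd247, Cd8a and Cd8b1 were at 12.76 to 14.21 on all 8 arrays, whereas Cd4 (5.05 to 5.44) and Thy1 (4.34 to 4.61) lay at or below the highest bacterial control on every array. Of 40 measured markers of B, myeloid, dendritic, natural killer, stromal and erythroid cells 0 were called by limma, against 3.12% of all probe sets. An unadjusted p under 0.05, for which no share of all is given here, was found for 6 of the markers. With the replicate block the stromal gene Postn passed as lower in CD44hi (difference -2.40, limma adjusted p = 0.0768 without and 0.0022 with the block). The summed intensity of the 7 stromal markers was 421.9 to 970.0 in CD44hi and 1249 to 2726 in CD44lo, so it moved with the groups as Gata3 did, while the other stromal markers differed by -0.16 to 0.30. The sum of the 8 dendritic cell markers also separated the groups, at 511.3 to 544.6 in CD44hi and 455.6 to 498.0 in CD44lo. Yet these markers went both ways, with log2 differences of -0.20 to 0.42 and a median of -0.03. The sums overlapped for the 8 B cell markers (350.5 to 385.8 and 325.7 to 373.8), the 9 myeloid markers (511.4 to 1523 and 543.9 to 1130), the 4 natural killer cell markers (97.7 to 118.4 and 90.6 to 102.1) and the 4 erythroid markers (228.0 to 339.0 and 206.0 to 239.2). Every array lay at or below the highest control for 3 of the stromal, 3 of the dendritic, 4 of the B cell, 5 of the myeloid, 3 of the natural killer and 2 of the erythroid markers. RNA quality was read from Gapdh and Actb. For Gapdh, the 3′ probe set exceeded the 5′ one by 0.816 ± 0.052 (CD44hi) and 0.696 ± 0.036 (CD44lo) in log2, mean and SD of 4 arrays. For Actb the same quantity was 0.626 ± 0.152 (CD44hi) and 0.498 ± 0.106 (CD44lo), and both were higher in CD44hi at 4 of 4 replicate numbers. A two-sided exact permutation test over all arrays gave p = 0.0286 for Gapdh, the smallest possible, and 0.229 for Actb. Permuted within replicate numbers, the exact p was 0.125 for each, the smallest that 4 pairs allow. The part of RNA quality and of stromal and dendritic cell transcripts in the differences above was not tested.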

How the data were processed

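The arrays were hybridised, scanned and summarised by the authors. The deposited values are intensity per probe set on a linear scale, processed by RMA per the labels' protocols, in a version not given in the sources used here. The deposited table was used as it stands, and log2 was taken with no pseudocount. After 64 control probe sets were left out, 22626 were compared with limma 3.58.1 in R 4.3.3 (lmFit and eBayes, no covariate, all 8 arrays). In simulated data with independent noise, this fit called 23.9% of probe sets changed by 0.5 in log2, 80.6% at 1.0 and 100% at 2.0. Of its calls 5.56% were false. Arrays that deviate together were not simulated. A change of 0.5 or less can thus stay uncalled. A probe set was called at a Benjamini-Hochberg adjusted p under 0.05. The platform annotation gave 1 symbol for 20380 probe sets, several for 691 and none for 1555.

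The factors and lists were chosen with earlier results of these data known. Genes were named by a rule: all 10 factors; of each list up to 4 called genes with the smallest p; called markers of other cell types; Cd4, Cd8a, Cd8b1, Cd3e, Cd44 and Smarcb1; and the 3 genes nearest in pattern to a factor that varied with an SD of at least 0.5. Actn1, Il4, Il5, Il13, Bhlhe41, Il10, Ptgdr2 and Cbfb were named outside the rule, after their values were seen. So were Ifng, Il18r1, Gata4, Postn, Cd28, Zap70, Cd244a and Entpd1. The T cell markers Cd3d, Cd3g, Cd247 and Thy1 and the RNA quality transcripts Gapdh and Actb are outside it too. Same-numbered arrays deviated together from their group means (r = 0.57, 0.39, 0.54 and 0.54 at numbers 1 to 4). Differences are therefore also given by number, and a block for the number was run as an alternative. The main fit did not pair the arrays, and the meaning of the numbers is unstated. Numbers 1 and 3 also went together (0.45 and 0.52), as did 2 and 4 (0.44 and 0.37). P-values measure the spread between these arrays. The number of arrays limits the precision. Array medians were 320.3 to 339.1 in intensity. Alternatives covered normalization, an added constant, filters, 1 probe set per gene, intensity trend, weighted arrays, a block for the number, 1 array left out at a time and pairs of numbers.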

Additional observations from a re-analysis of the deposited data

Results flagged for a closer look

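In the second Zbtb7b probe set (1455071_at), CD44hi replicate 4 was at 6.35 on the log2 scale and the other three CD44hi arrays at 6.65 to 6.70. The CD44hi arrays of Slamf6 read 9.04 for replicate 4, against 8.52 to 8.57 for the rest. In both, 1 array lay further from the nearest of the others than Dixon's criterion at the 95% level allows. These were 2 of 54 groups of 4 arrays examined, and chance alone gives about 1 in 20.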

How the results depend on the processing

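No called difference changed direction under the alternatives run. Of the uncalled ones, Bcl11b was -0.29 with numbers 1 and 3 only and 0.10 with numbers 2 and 4 only, and the Runx1 probe sets 1427650_a_at and 1452530_a_at were -0.11 and -0.27, and 0.14 and 0.28. The Gata3 difference was -3.73 to -3.10 over them, with -3.10 for log2 of intensity plus 32. Of 224 values of the factors' differences under alternatives that can change a difference of means, 214 moved by less than 1 SD and 10 by more. Against 371 probe sets higher and 334 lower in CD44hi, the filter on a mean above the median, which removes Gata3, left 191 and 194 of 11313 tested. With 1 probe set per gene there were 252 and 220, with arrays weighted by quality 620 and 656, under the replicate block 571 and 594, and at an adjusted p under 0.01 there were 201 and 160. Without 1 array there were 256 to 347 higher and 200 to 338 lower (214, 211 and 200 lower without CD44lo replicate 2, 3 and 4). Fits chosen after seeing the data gave 561 and 561 for numbers 1 and 3, 429 and 361 for numbers 2 and 4, and 14 and 2 with those pairs averaged. The 8 higher and 2 lower list genes became 9 and 4 with the replicate block, 4 lower with array weights, 1 lower after the filter, 6 to 8 higher and 2 to 4 lower without 1 array (4 without CD44hi replicate 4), and 5 and 1 at an adjusted p under 0.01. Numbers 1 and 3 gave 6 lower, numbers 2 and 4 gave 7, and averaging gave 0 higher and 1 lower. That 1 was Slamf6, so Ccl5, Cxcr3, Il7r, Ccr7, Nsg2, Il4ra, Id2, Actn1 and Tcf7l2 lost their calls on averaging. Il4ra and Id2 also lost theirs with numbers 2 and 4 only, and Id2 and Actn1 with numbers 1 and 3 only. The replicate block changed the calls of Ifng, Gata4, Il18r1 and Postn among the genes of the lists. Tbx21 was called with Gata3 after quantile normalization, with 32 added, with 1 probe set per gene, with an intensity trend and with array weights, and alone after the filter. Averaging leaves fewer samples and the filter fewer probe sets; for the other changes the cause was not tested. Levels at the bacterial controls limit Lef1, Eomes, 2 Runx1 probe sets and the list genes that lay there.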
